A study of Mus musculus with 9 samples.

Results

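The genes described here are 32 genes of branched-chain amino acid and lysine breakdown. They were taken from a list of pathway enzymes, which was chosen with earlier results of these data known. They were matched to probe sets annotated with exactly 1 gene symbol, and all 32 were found among the 19938 genes measured in this way. Liver RNA came from 3 groups of male mice with 3 arrays each. The N-control mice were lean wild-type C57BL/6J given tap water. The OB-control mice were ob/ob mice (strain B6.V-Lepob/J), which lack functional leptin, become obese and develop a fatty liver, and they were also given tap water. The OB-TUDCA mice were ob/ob mice given tauroursodeoxycholic acid (TUDCA), a hydrophilic bile acid conjugated with taurine, at 500 mg/kg. In every group the gavage was done 2 times a day for 3 weeks from 6 weeks of age, the diet was normal chow, and the liver was taken after a fast of 8 h. Leptin deficiency is carried by both ob/ob groups, and no lean mice received TUDCA, so the effect of TUDCA could be compared in ob/ob mice only.

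Leucine, isoleucine and valine lose their amino group to branched-chain aminotransferases and are then committed to oxidation by the mitochondrial branched-chain alpha-keto acid dehydrogenase, which a kinase switches off and a phosphatase switches on. From there each carbon skeleton takes its own branch. Leucine gives acetyl-CoA and acetoacetate, while isoleucine and valine give propionyl-CoA, which a biotin-dependent carboxylase, an epimerase and a cobalamin-dependent mutase turn into succinyl-CoA. Lysine is broken down in liver mitochondria through saccharopine, aminoadipate and oxoadipate to glutaryl-CoA and crotonyl-CoA. The aminotransferase step is known to be weak in liver, whereas the dehydrogenase and the branches below it are highly active there.

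Signals are RMA values on a log2 scale, so a difference of 1 is a 2-fold difference. A difference is called when its p-value in limma, adjusted over all 19938 genes, is below 0.05. The medians of the 9 arrays lay between 4.50 and 4.58, and arrays of the same group correlated at 0.981 to 0.990 over genes. Hepatocyte marker genes had a mean signal between 12.73 and 12.96 on every array. N-control replicate 2 stood apart, since 17 pancreatic acinar genes had a mean signal of 10.47 on it and of 3.85 to 4.30 on the other 8 arrays. Counts of members by adjusted or unadjusted p and the calls of single members against N-control are therefore also given without it. Other values against N-control include it, among them the counts by mean and by arrays that did not overlap. The labels call the arrays biological replicates, and whether each held the RNA of 1 mouse or of a pool is not stated in the sources used here.

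In livers of TUDCA-treated ob/ob mice the breakdown genes had mostly lower signals than in untreated ob/ob mice. The mean was lower in OB-TUDCA for 30 of the 32 members, and the median difference was -0.36 against 0.01 over all genes tested. Only Abat, an aminotransferase that acts on gamma-aminobutyrate and on the aminoisobutyrate of valine breakdown, fell past the adjusted threshold, and no member rose past it. Over all genes, 0.186% fell and 0.115% rose past it. With 1 array left out at a time, 0 members passed, except without OB-TUDCA replicate 1, when 5 passed. Shares over all genes were not taken for these fits. The count was also 0 with only the 2 groups in the fit and with a covariate for the acinar genes. At an unadjusted p below 0.05, 23 members (71.9%) were lower and 1 (Oxct1) was higher, beside 5.72% and 6.26% of all genes. Since the members were chosen with earlier results known, these shares describe the list and do not test it. Among the tenth of genes with the brightest signal, where many members lie, 16.4% were lower at that p.

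**Figure D1:**
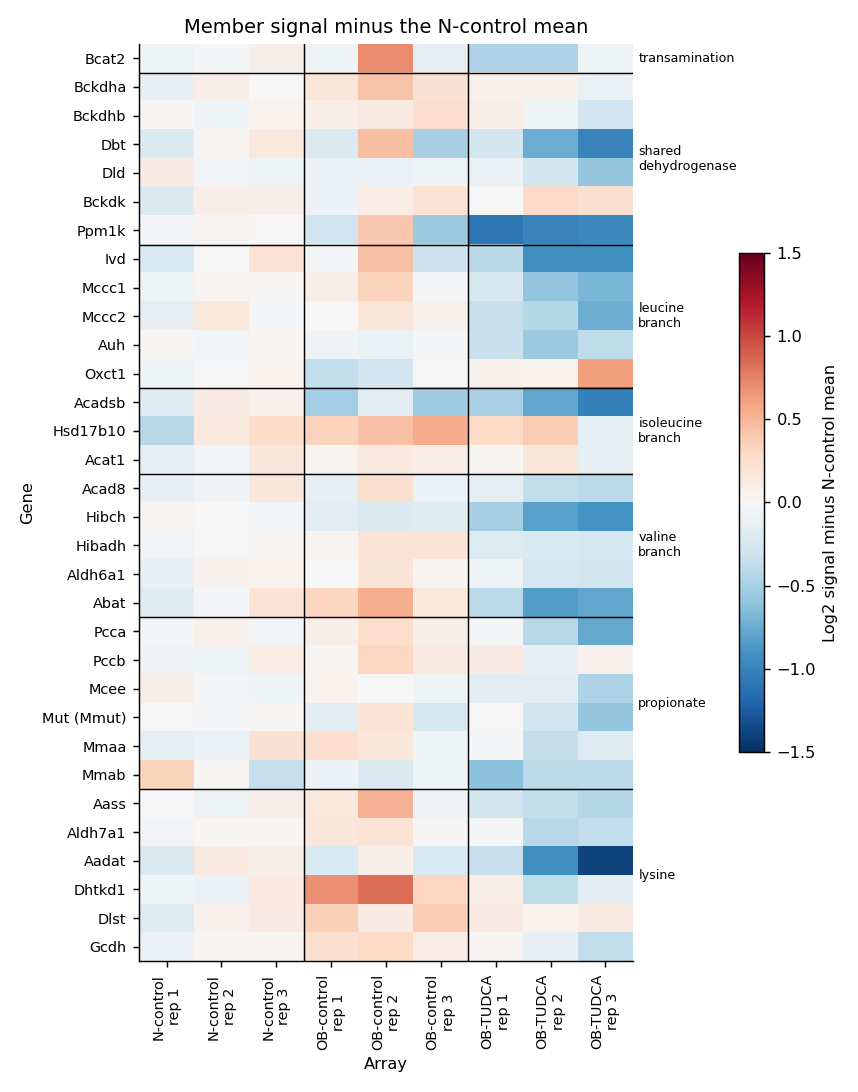
Log2 signal of the 32 members on the 9 arrays, each minus the gene's N-control mean, with genes in rows by pathway step and arrays in columns. Blue is below and red above the N-control mean. The OB-TUDCA columns are mostly blue, most so for replicates 2 and 3, and OB-control replicate 2 is the reddest column.

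The arrays of OB-TUDCA and OB-control did not overlap for 19 members that were lower (59.4%, with 6.53% over all genes) and for 1 that was higher (7.26% over all genes). Among the tenth of genes with the brightest signal these shares were 16.9% lower and 9.98% higher. At least 1.5-fold lower were 7 members, namely Abat, Ppm1k, Ivd, Aadat, Dhtkd1, Mccc1 and Mccc2 (21.9%, with 1.3% over all genes). In whole liver, fewer cells of a type and less RNA per cell cannot be told apart. The mean of 8 hepatocyte markers was 12.73 to 12.85 in OB-control and 12.73 to 12.81 in OB-TUDCA. Of 9 Kupffer cell and macrophage markers, 7 had a higher mean in OB-TUDCA and none was called. Their mean signal was 6.85, 7.21 and 7.19 in N-control, 6.85, 7.13 and 7.23 in OB-control and 6.94, 7.53 and 7.56 in OB-TUDCA. It was highest on the same OB-TUDCA replicates 2 and 3 on which the members were lowest. The members' mean signal was 8.92, 9.01 and 9.06 in N-control, 9.02, 9.22 and 8.99 in OB-control and 8.82, 8.65 and 8.57 in OB-TUDCA. Of 8 stellate cell markers, 7 had a higher mean in OB-TUDCA, with a mean signal of 6.62 to 6.77 in OB-control and of 6.78 to 7.01 in OB-TUDCA. Of 8 endothelial markers, 3 were higher and 2 lower at an unadjusted p below 0.05 with arrays that did not overlap, from -0.93 for Kdr to 1.61 for Lyve1, and none was called. No marker of cholangiocytes (5), lymphocytes (6) or adipocytes (4) was called. The part of these cells in the result was not tested.

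**Figure D2:**
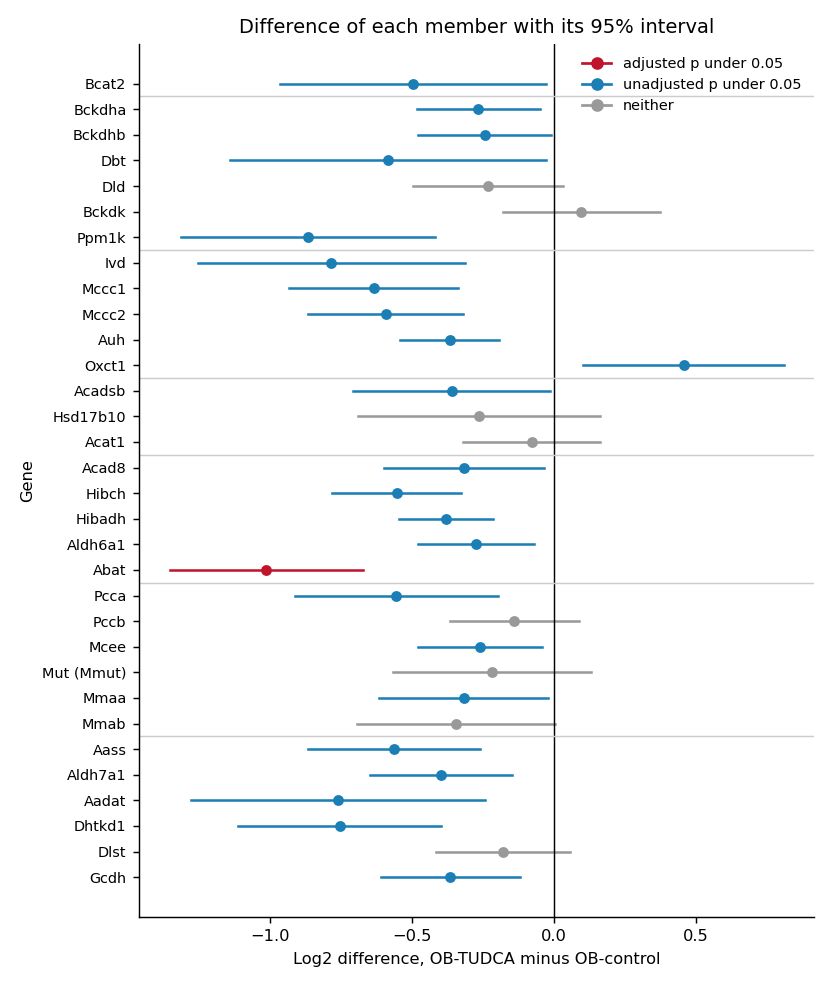
Log2 difference of OB-TUDCA minus OB-control for each of the 32 members (points) with its 95% interval from limma (lines), in the order of the pathway. Nearly all points lie left of 0. Abat, at -1.01, is the member past the adjusted threshold, and Oxct1, at 0.46, lies farthest to the right.

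Promoter sequences are shown for 4 of the members whose arrays did not overlap between OB-TUDCA and OB-control and whose upstream windows hold CCAAT or GGGCGG matches. Other members, such as Ivd and Aass, meet both conditions and are not shown. The sequences printed are thus examples. These sequences are the bases just upstream of the start in RefSeq (GRCm38.p6), 250 for each gene, written 5′ to 3′ on the gene's strand. Capitals mark CCAAT and GGGCGG on either strand, of which the first is bound by the NF-Y complex and the second by Sp1 proteins in many promoters. Mccc1 lies at chr3:36000679-36000928 on the minus strand, Mccc2 at chr13:100015640-100015889 on the minus strand, Ppm1k at chr6:57535488-57535737 on the minus strand, and Hibch at chr1:52844788-52845037 on the plus strand.
Mccc1: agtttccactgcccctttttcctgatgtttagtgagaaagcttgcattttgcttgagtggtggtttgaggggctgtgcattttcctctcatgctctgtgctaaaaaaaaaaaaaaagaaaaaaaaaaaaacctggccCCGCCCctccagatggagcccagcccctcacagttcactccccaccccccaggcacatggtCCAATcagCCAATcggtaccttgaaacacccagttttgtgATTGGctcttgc
Mccc2: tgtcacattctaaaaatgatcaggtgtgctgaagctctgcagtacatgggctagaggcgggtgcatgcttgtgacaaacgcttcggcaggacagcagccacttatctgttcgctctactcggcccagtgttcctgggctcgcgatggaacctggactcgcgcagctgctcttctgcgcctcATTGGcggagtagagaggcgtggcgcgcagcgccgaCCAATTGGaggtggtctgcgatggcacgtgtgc
Ppm1k: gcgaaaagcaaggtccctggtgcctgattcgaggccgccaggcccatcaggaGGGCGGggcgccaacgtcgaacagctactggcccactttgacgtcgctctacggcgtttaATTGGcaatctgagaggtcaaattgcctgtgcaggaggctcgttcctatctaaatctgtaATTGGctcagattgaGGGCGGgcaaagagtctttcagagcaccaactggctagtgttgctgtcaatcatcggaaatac
Hibch: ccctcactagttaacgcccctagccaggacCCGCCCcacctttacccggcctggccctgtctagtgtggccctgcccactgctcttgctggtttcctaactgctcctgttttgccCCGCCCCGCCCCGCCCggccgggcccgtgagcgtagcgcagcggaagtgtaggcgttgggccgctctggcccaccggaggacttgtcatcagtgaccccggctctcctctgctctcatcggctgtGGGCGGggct

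Both subunits of methylcrotonyl-CoA carboxylase hold 3 CCAAT matches, of which 2 overlap in the palindrome of Mccc2, while the Hibch window holds 5 GGGCGG matches and no CCAAT. Promoters were found for 27 of the 32 members, all but Abat, Acat1, Aldh7a1, Dbt and Mut. CCAAT was in 17 of these windows (63%), beside 34.5% of all 27025 windows and 35.5% of the windows of genes on the array. GGGCGG was in 15 (55.6%), beside 32.9% and 46%. The E-box CACGTG was in Mccc2 alone (3.7%, with 6.05% over all windows), CAAAGTCCA, a sequence bound by HNF4, was in Aadat alone (0.381% over all windows), and TCAAGGTCA, a sequence bound by estrogen-related receptors, was in none (0.366% over all windows). The motifs were searched on both strands, and matches of a motif that share letters were each counted, as in Hibch and Mccc2. The members' windows had a median GC content of 55.6% beside 56.4% for genes on the array. These are matches of letters and not measured binding sites.

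Of the first step and the enzyme complex after it, 6 of 7 genes lay lower on average after TUDCA than in OB-control and none passed the adjusted threshold. Bcat2, the mitochondrial branched-chain aminotransferase, was at 6.53, 6.57 and 6.69 on the N-control arrays, 6.53, 7.30 and 6.46 on the OB-control arrays and 6.13, 6.14 and 6.53 on the OB-TUDCA arrays. OB-control replicate 2 was high for it and the 2 groups overlapped. Its difference between OB-TUDCA and OB-control was -0.50 (SE 0.21, adjusted p = 0.38). Of the 6 genes of the dehydrogenase and its control, 5 had a lower mean in OB-TUDCA and 4 were lower at an unadjusted p below 0.05, with a median of -0.26.

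Bckdha, the alpha subunit of the decarboxylase, was at 9.07, 9.28 and 9.19 on the N-control arrays, 9.36, 9.61 and 9.41 on the OB-control arrays and 9.25, 9.25 and 9.08 on the OB-TUDCA arrays. All OB-TUDCA arrays were below all OB-control arrays and within the N-control range, with -0.27 (SE 0.10, adjusted p = 0.303) against OB-control and 0.28 (SE 0.10, adjusted p = 0.274) for OB-control against N-control. Bckdhb, its beta subunit, was at 9.29, 9.21 and 9.33 on the N-control arrays, 9.37, 9.41 and 9.54 on the OB-control arrays and 9.38, 9.22 and 8.99 on the OB-TUDCA arrays. It overlapped between the ob/ob groups by 1 array and differed by -0.24 (SE 0.10, adjusted p = 0.387). Dbt, the acyltransferase core of the complex, was at 9.24, 9.49 and 9.60 on the N-control arrays, 9.23, 9.89 and 8.95 on the OB-control arrays and 9.16, 8.70 and 8.45 on the OB-TUDCA arrays. Its OB-control arrays spread over a wide range, and the difference was -0.58 (SE 0.25, adjusted p = 0.385). Dld, the dihydrolipoamide dehydrogenase shared with the pyruvate and oxoglutarate complexes, had means of 9.72 (N-control), 9.64 (OB-control) and 9.40 (OB-TUDCA) and differed by -0.23 (SE 0.12, adjusted p = 0.481).

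The kinase and the phosphatase of the complex had differences of opposite sign. Bckdk, the kinase that inactivates the dehydrogenase, had means of 6.80 (N-control), 6.88 (OB-control) and 6.97 (OB-TUDCA), and its difference of 0.10 (SE 0.12, adjusted p = 0.814) had a 95% interval of -0.18 to 0.37. Ppm1k, the phosphatase that activates it, was at 9.87, 9.94 and 9.89 on the N-control arrays, 9.60, 10.30 and 9.34 on the OB-control arrays and 8.81, 8.89 and 8.94 on the OB-TUDCA arrays. Every OB-TUDCA array was below every other array, and OB-control replicate 2 was the highest of all. The difference was -0.87 (SE 0.20, adjusted p = 0.107), 1.82-fold lower, against OB-control and -1.02 (SE 0.20, adjusted p = 0.0266), 2.02-fold lower, against N-control, where it fell past the threshold. The difference between the kinase's and the phosphatase's response was not tested.

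The leucine branch had the lowest median of the groups with more than 1 gene, -0.59, with 4 of 5 genes lower and their arrays apart. Ivd, isovaleryl-CoA dehydrogenase, was at 9.80, 10.02 and 10.24 on the N-control arrays, 10.00, 10.46 and 9.70 on the OB-control arrays and 9.60, 9.10 and 9.10 on the OB-TUDCA arrays. OB-TUDCA replicates 2 and 3 were the low ones, and the difference was -0.78 (SE 0.21, adjusted p = 0.153). Mccc1, the biotin-carrying subunit of methylcrotonyl-CoA carboxylase whose promoter is printed above, was at 8.51, 8.62 and 8.59 on the N-control arrays, 8.66, 8.91 and 8.54 on the OB-control arrays and 8.34, 7.98 and 7.89 on the OB-TUDCA arrays. Mccc2, the other subunit, was at 8.01, 8.31 and 8.13 on the N-control arrays, 8.16, 8.33 and 8.22 on the OB-control arrays and 7.80, 7.72 and 7.40 on the OB-TUDCA arrays. For both subunits the OB-TUDCA arrays lay below all 6 other arrays. They differed by -0.64 (SE 0.13, adjusted p = 0.0814) and -0.59 (SE 0.12, adjusted p = 0.0803) from OB-control, 1.55-fold and 1.51-fold lower.

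Auh, the methylglutaconyl-CoA hydratase of the same branch, was at 8.24, 8.18 and 8.26 on the N-control arrays, 8.18, 8.13 and 8.20 on the OB-control arrays and 7.89, 7.67 and 7.84 on the OB-TUDCA arrays. The 6 control arrays lay close together and all 3 OB-TUDCA arrays lay below them. Its difference was -0.37 (SE 0.08, adjusted p = 0.086) against OB-control and -0.42 (SE 0.08, adjusted p = 0.0215) against N-control, where it fell past the threshold. Oxct1, the transferase that activates acetoacetate for oxidation outside the liver and is known to be nearly silent in hepatocytes, went the other way at 4.26, 4.32 and 4.38 on the N-control arrays, 3.95, 4.04 and 4.32 on the OB-control arrays and 4.38, 4.37 and 4.93 on the OB-TUDCA arrays. The ob/ob groups did not overlap, but OB-TUDCA replicate 3 alone was well above the N-control arrays, and the difference was 0.46 (SE 0.16, adjusted p = 0.272).

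In the isoleucine branch, 3 of 3 means were lower in OB-TUDCA, 1 gene was lower at an unadjusted p below 0.05 and the median was -0.26. Acadsb, the short/branched-chain acyl-CoA dehydrogenase, was at 8.54, 8.84 and 8.79 on the N-control arrays, 8.22, 8.57 and 8.19 on the OB-control arrays and 8.24, 7.94 and 7.71 on the OB-TUDCA arrays. Its means stepped down from N-control to OB-control to OB-TUDCA, by -0.40 (SE 0.15, adjusted p = 0.333) and then by -0.36 (SE 0.15, adjusted p = 0.388), and against N-control it fell past the threshold with -0.76 (SE 0.15, adjusted p = 0.0308). Hsd17b10, which oxidizes the methyl-hydroxybutyryl-CoA of this branch, was at 10.13, 10.70 and 10.83 on the N-control arrays, 10.90, 10.99 and 11.11 on the OB-control arrays and 10.86, 10.94 and 10.42 on the OB-TUDCA arrays. N-control replicate 1 was the low array, and the differences were -0.26 (SE 0.19, adjusted p = 0.638) for OB-TUDCA against OB-control and 0.45 (SE 0.19, adjusted p = 0.387) for OB-control against N-control. Acat1, the mitochondrial thiolase that splits off propionyl-CoA, had means of 10.39 (N-control), 10.49 (OB-control) and 10.41 (OB-TUDCA) and differed between the ob/ob groups by -0.08 (SE 0.11, adjusted p = 0.824).

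**Figure D3:**
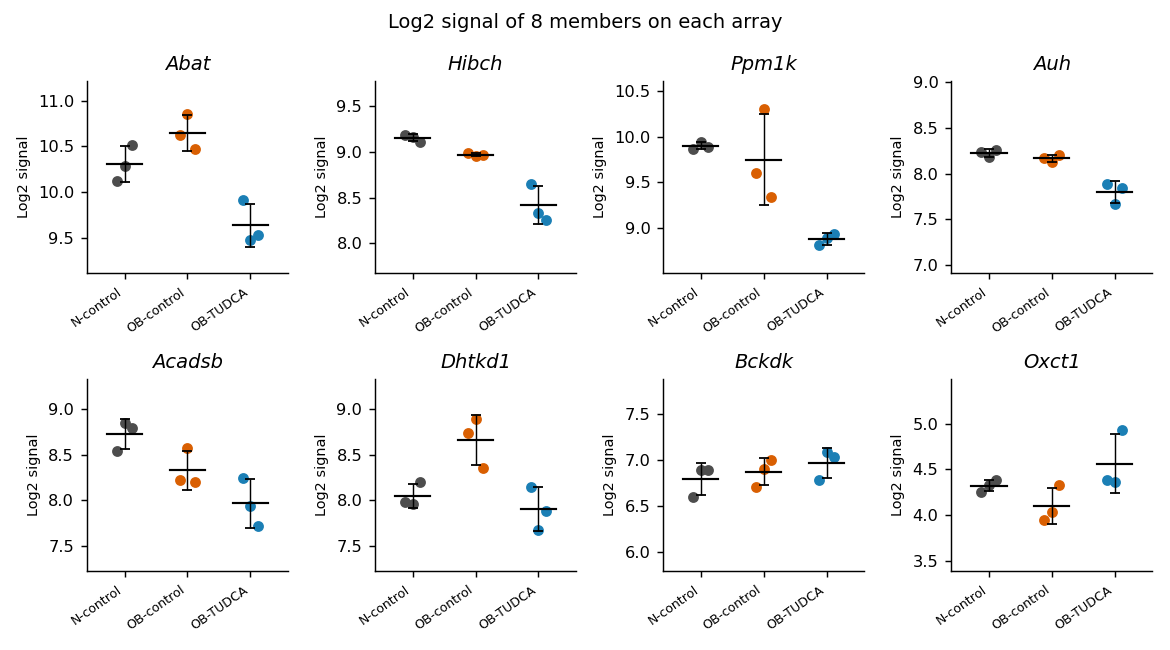
Log2 signal of Abat, Hibch, Ppm1k, Auh, Acadsb, Dhtkd1, Bckdk and Oxct1 on each array (points), with the mean (wide line) and SD of each group of 3 (error bar). Each panel spans the same range of log2 units. Abat, Hibch, Ppm1k and Auh have all OB-TUDCA points below all others, Dhtkd1 is highest in OB-control, and Bckdk and Oxct1 have their highest mean in OB-TUDCA.

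In the valine branch, all 5 genes were lower in OB-TUDCA with arrays that did not overlap, and the median was -0.38. Acad8, isobutyryl-CoA dehydrogenase, was at 9.11, 9.18 and 9.41 on the N-control arrays, 9.11, 9.48 and 9.14 on the OB-control arrays and 9.09, 8.87 and 8.83 on the OB-TUDCA arrays, a difference of -0.32 (SE 0.13, adjusted p = 0.347). Hibch, the hydrolase that frees hydroxyisobutyrate from its CoA ester, was at 9.19, 9.16 and 9.11 on the N-control arrays, 8.99, 8.95 and 8.97 on the OB-control arrays and 8.65, 8.34 and 8.26 on the OB-TUDCA arrays. The 3 groups were fully separated, from N-control at the top to OB-TUDCA at the bottom. Hibch differed by -0.56 (SE 0.10, adjusted p = 0.0635) between OB-TUDCA and OB-control and by -0.18 (SE 0.10, adjusted p = 0.523) between OB-control and N-control, and it fell by 0.74 (SE 0.10, adjusted p = 0.00703) against N-control, 1.67-fold.

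Hibadh, which oxidizes that hydroxyisobutyrate, was the member measured by 2 probe sets. The brighter probe set was at 11.11, 11.14 and 11.21 on the N-control arrays, 11.23, 11.22 and 11.21 on the OB-control arrays and 10.73, 10.59 and 10.63 on the OB-TUDCA arrays, so the treated arrays stood clear below the others. The dimmer one stayed between 2.08 and 2.47 on all 9 arrays. Their average differed by -0.38 (SE 0.07, adjusted p = 0.0713) between OB-TUDCA and OB-control. With each probe set tested on its own, the brighter one fell by 0.57 (SE 0.07, adjusted p = 0.0257) against OB-control and by 0.50 (SE 0.07, adjusted p = 0.00825) against N-control. Hibadh was thus not called as an average and was called by its brighter probe set.

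Aldh6a1, the methylmalonate semialdehyde dehydrogenase that ends the branch in propionyl-CoA, was at 11.18, 11.36 and 11.35 on the N-control arrays, 11.30, 11.49 and 11.32 on the OB-control arrays and 11.22, 11.05 and 11.02 on the OB-TUDCA arrays, a difference of -0.28 (SE 0.09, adjusted p = 0.247). Abat was at 10.12, 10.29 and 10.51 on the N-control arrays, 10.63, 10.86 and 10.47 on the OB-control arrays and 9.91, 9.47 and 9.53 on the OB-TUDCA arrays. OB-TUDCA replicate 1 was the highest of the treated arrays and still below all control arrays. Abat fell by 1.01 (SE 0.15, adjusted p = 0.0386), 2.02-fold, against OB-control and by 0.67 (SE 0.15, adjusted p = 0.0467), 1.59-fold, against N-control. OB-control minus N-control was 0.34 (SE 0.15, adjusted p = 0.407). When each array was left out in turn, the adjusted p of Abat against OB-control ran from 0.0186 to 0.149 and passed only without OB-TUDCA replicate 1. The adjusted p was 0.126 with only the 2 groups in the fit and 0.0798 with a covariate for the acinar genes, so the call was lost in both. It was also lost with the replicate number as a block.

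The 6 propionate genes all had lower means in OB-TUDCA, with a median of -0.29, and 3 were lower at an unadjusted p below 0.05. Pcca, the biotin-carrying subunit of propionyl-CoA carboxylase, was at 9.30, 9.41 and 9.29 on the N-control arrays, 9.43, 9.60 and 9.43 on the OB-control arrays and 9.30, 8.92 and 8.57 on the OB-TUDCA arrays. Among the treated arrays replicate 1 was highest and replicate 3 lowest, none reached the OB-control arrays, and the difference was -0.56 (SE 0.16, adjusted p = 0.183). Pccb, the partner subunit, had means of 9.99 (N-control), 10.15 (OB-control) and 10.01 (OB-TUDCA) and differed by -0.14 (SE 0.10, adjusted p = 0.637). The difference between the subunits' responses was not tested. Mcee, the epimerase after the carboxylase, was at 9.45, 9.35 and 9.30 on the N-control arrays, 9.42, 9.36 and 9.30 on the OB-control arrays and 9.21, 9.19 and 8.90 on the OB-TUDCA arrays, a difference of -0.26 (SE 0.10, adjusted p = 0.313).

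Mut (Mmut in the table), the cobalamin-dependent mutase, had means of 10.34 (N-control), 10.27 (OB-control) and 10.05 (OB-TUDCA) and differed by -0.22 (SE 0.15, adjusted p = 0.63). Mmaa, the GTPase that helps to load and guard the mutase's cofactor, was at 6.24, 6.28 and 6.61 on the N-control arrays, 6.63, 6.55 and 6.31 on the OB-control arrays and 6.34, 6.02 and 6.18 on the OB-TUDCA arrays. Mmaa overlapped between the ob/ob groups through OB-TUDCA replicate 1 and differed by -0.32 (SE 0.13, adjusted p = 0.375). Mmab, which makes adenosylcobalamin, had means of 6.46 (N-control), 6.34 (OB-control) and 5.99 (OB-TUDCA) and differed by -0.34 (SE 0.15, adjusted p = 0.421), with arrays that did not overlap.

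Of the lysine genes, 6 of 6 had lower means in OB-TUDCA, 5 of them with arrays apart, and the median was -0.48. Aass, the bifunctional synthase that starts the saccharopine route, was at 11.01, 10.94 and 11.10 on the N-control arrays, 11.17, 11.54 and 10.96 on the OB-control arrays and 10.75, 10.65 and 10.59 on the OB-TUDCA arrays. The treated arrays lay together below all others, and the difference was -0.56 (SE 0.13, adjusted p = 0.115). Aldh7a1, the aminoadipate semialdehyde dehydrogenase, was at 10.90, 10.98 and 10.96 on the N-control arrays, 11.11, 11.16 and 10.96 on the OB-control arrays and 10.93, 10.53 and 10.58 on the OB-TUDCA arrays, a difference of -0.40 (SE 0.11, adjusted p = 0.17). Aadat, the aminoadipate aminotransferase, was at 8.84, 9.19 and 9.15 on the N-control arrays, 8.83, 9.15 and 8.83 on the OB-control arrays and 8.71, 8.14 and 7.67 on the OB-TUDCA arrays. It had the widest spread among the treated arrays of the 32 members, with replicate 3 lowest, and differed by -0.76 (SE 0.23, adjusted p = 0.207), 1.69-fold.

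Dhtkd1, the decarboxylase of the oxoadipate dehydrogenase, was at 7.99, 7.96 and 8.20 on the N-control arrays, 8.74, 8.89 and 8.35 on the OB-control arrays and 8.15, 7.67 and 7.89 on the OB-TUDCA arrays. OB-control stood above N-control on every array, and the OB-TUDCA arrays lay among or below the N-control arrays. Its differences were 0.61 (SE 0.16, adjusted p = 0.14) for OB-control against N-control, 1.53-fold higher, and -0.75 (SE 0.16, adjusted p = 0.0854) for OB-TUDCA against OB-control, 1.69-fold lower. Both differences use the same OB-control arrays. Dlst, the succinyltransferase shared with the oxoglutarate complex, was at 9.005, 9.26 and 9.32 on the N-control arrays, 9.55, 9.32 and 9.58 on the OB-control arrays and 9.32, 9.25 and 9.33 on the OB-TUDCA arrays. The treated arrays lay within a narrow range near the upper N-control arrays, and the differences were -0.18 (SE 0.10, adjusted p = 0.548) against OB-control and 0.29 (SE 0.10, adjusted p = 0.3) for OB-control against N-control. Gcdh, glutaryl-CoA dehydrogenase, was at 11.22, 11.35 and 11.35 on the N-control arrays, 11.55, 11.61 and 11.42 on the OB-control arrays and 11.34, 11.20 and 10.94 on the OB-TUDCA arrays, a difference of -0.37 (SE 0.11, adjusted p = 0.201).

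Fewer members stood apart between untreated ob/ob and lean mice, though the 2 comparisons were not tested against each other. For OB-control against N-control, 21 members had a higher and 11 a lower mean, the median was 0.09 beside 0.02 over all genes (0.03 without OB-control replicate 2), and none passed the adjusted threshold in limma (0.492% of all genes fell and 0.456% rose). At an unadjusted p below 0.05, Bckdha, Hsd17b10, Abat, Dhtkd1 and Dlst were higher (15.6%, with 6.55% over all genes) and Acadsb was lower (3.12%, with 5.59%). Arrays did not overlap for 7 higher members (8.49% over all genes) and for 1 lower member, Hibch (6.77%). Among the tenth of genes with the brightest signal, where many members lie, 13.3% were higher and 13.6% lower at that p. Arrays did not overlap for 16% of them that were higher and 15.8% that were lower. The lysine genes had the highest median of the groups with more than 1 gene, 0.21. Without N-control replicate 2, which carries the acinar genes, none passed and 4 were higher and 0 lower at the unadjusted p. Without N-control replicate 1, 1 was higher.

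Most members were also lower in treated ob/ob livers than in lean livers. For OB-TUDCA against N-control, 25 members had a lower mean and the median was -0.30 beside 0.04 over all genes. Ppm1k, Auh, Acadsb, Hibch and Abat fell past the adjusted threshold (15.6%, with 1.89% over all genes) and none rose (1.35%). At an unadjusted p below 0.05, 18 were lower (56.2%, with 8.15%) and 0 higher (10.4%). Arrays did not overlap for 16 lower members (50%, with 8.95%) and for 0 higher members (11.8%). The shares were larger among the tenth of genes with the brightest signal, where many members lie. There 7.22% fell past the adjusted threshold, 22.9% were lower at the unadjusted p and 24.9% were lower with arrays apart. In the other direction these shares were 3.21%, 15.2% and 18.7%. The 5 genes belong to different parts of the list, namely the phosphatase of the dehydrogenase, the leucine branch, the isoleucine branch and, for 2 of them, the valine branch. Without OB-TUDCA replicate 3, 11 were lower at the unadjusted p. Without N-control replicate 2, 14 were lower at it, and Hibch alone passed the adjusted threshold (-0.74, adjusted p = 0.0336). The values of the others without that array were -0.997 (adjusted p = 0.0887) for Ppm1k, -0.45 (adjusted p = 0.057) for Auh, -0.70 (adjusted p = 0.105) for Acadsb and -0.68 (adjusted p = 0.116) for Abat. Of the 8 hepatocyte markers, all 8 had a lower mean than in N-control, 3 at an unadjusted p below 0.05 and 5 with arrays apart, with a median of -0.15 and none called. Of the 8 endothelial markers, 5 were lower and 3 higher at that p, and 2 fell and 1 rose past the adjusted threshold. Of the 8 stellate cell markers, 7 had a higher mean, 3 were higher and 1 lower at that p, and none was called. The hepatocyte shift was not limited to treated livers. For OB-control against N-control, the differences of all 8 hepatocyte markers were negative, with a median of -0.12. At that p 2 were lower, 2 had arrays apart and none was called. Endothelial differences there were negative for 7 and positive for 1, with 2 lower at that p and none called. Stellate cell differences there were positive for 6 and negative for 2, with none called. The part of these cells in the result was not tested. The comparisons share the OB-TUDCA, OB-control or N-control arrays, so their values are not independent of each other.

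Hibch was the firmest of the 5 against N-control, since it passed with each of the 9 arrays left out in turn, at adjusted p-values from 0.00199 to 0.0393. Ppm1k passed in 3 of these 9 fits, Auh in 4, Acadsb in 3 and Abat in 2. With OB-TUDCA replicate 1 left out, 5 members passed against OB-control (Mccc1, Hibch, Abat, Pcca and Aldh7a1) and 9 against N-control. The shares over all genes belong to the fit of all 9 arrays. None was taken for the fits with an array left out, here or above, so those counts have no such share beside them.

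The order of the group means was OB-TUDCA, N-control, OB-control from low to high for 15 members, including Abat, Ivd, Mccc1, Mccc2, Aass and Gcdh. It was OB-TUDCA, OB-control, N-control for 10, including Ppm1k, Auh, Acadsb, Hibch and Aadat. For 5 members OB-TUDCA lay between the others with N-control lowest (Bckdha, Hsd17b10, Acat1, Pccb and Dlst). Bckdk had its highest mean in OB-TUDCA and its lowest in N-control, and Oxct1 had its highest in OB-TUDCA and its lowest in OB-control. No member was called between N-control and OB-control, so the order of these 2 groups is open to the spread of the arrays.

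Many of the members also varied together from array to array. The median deviation of the members from their own means was -0.01, 0.08 and 0.11 on the N-control arrays, 0.11, 0.25 and 0.08 on the OB-control arrays and -0.04, -0.28 and -0.34 on the OB-TUDCA arrays. OB-control replicate 2 was the highest array for 18 members, and OB-TUDCA replicate 3 was the lowest for 18. Treated replicate 1 was thus close to the N-control arrays, and replicates 2 and 3 carried most of the difference. Over all genes the median deviation stayed between -0.02 and 0.01 on each array.

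**Figure D4:**
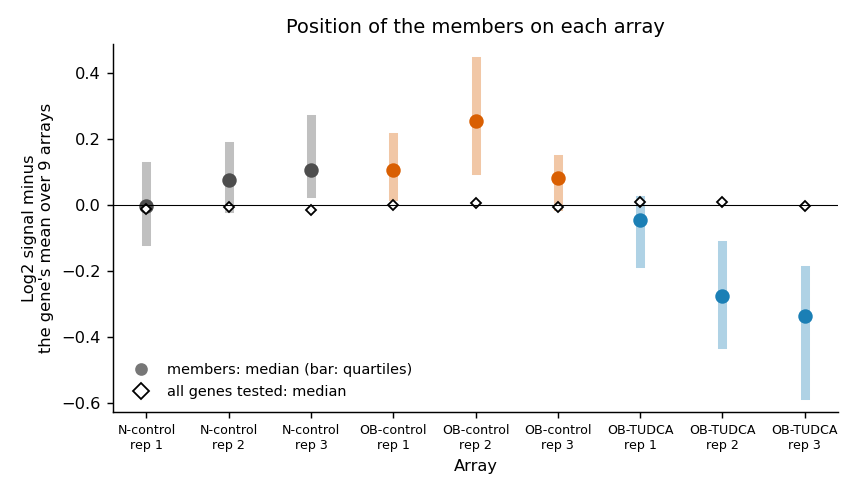
Median over the 32 members of the log2 signal minus the gene's mean over the 9 arrays (circles, with the quartiles as bars), and the same median over all genes tested (diamonds). OB-control replicate 2 is highest at 0.25 and OB-TUDCA replicate 3 lowest at -0.34, while the diamonds stay near 0.

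Across the 9 arrays, the correlation of a member with the mean of the others was highest for Mccc1 (0.99), Aldh6a1 (0.97), Ivd (0.97) and Abat (0.97). It was lowest for Oxct1 (-0.78) and Bckdk (-0.40), followed by Dlst (0.15). The arrays share the groups' differences, so the correlations were also taken with the group means removed. They were then highest for Dbt (0.97) and Acadsb (0.97) and 0.95 for Mccc1. Mmab was lowest at -0.72, after 0.34 across the arrays as they are, followed by Oxct1 (-0.53), Dlst (-0.15) and Bckdk (-0.15), and Auh was at 0.06. These correlations describe 9 arrays and are given without a test.

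Neighbouring genes that the list left out give the surroundings. Of 15 further genes of branched-chain breakdown, most of them shared with fatty acid oxidation, 11 were lower on average in OB-TUDCA than OB-control, with a median of -0.10. Agxt2, a mitochondrial aminotransferase that also acts on aminoisobutyrate, was the one that fell, by 0.71 (SE 0.11, adjusted p = 0.0468). It was at 10.01, 10.33 and 10.31 on the N-control arrays, 10.49, 10.53 and 10.51 on the OB-control arrays and 9.99, 9.78 and 9.63 on the OB-TUDCA arrays, so the treated arrays lay below all others. At an unadjusted p below 0.05, 5 of the 15 were lower in OB-TUDCA than OB-control (33.3%, with 5.72% over all genes) and 0 higher. None passed the adjusted threshold for OB-control against N-control or for OB-TUDCA against N-control. In OB-control, 6 were higher than in N-control at an unadjusted p below 0.05 (40%, with 6.55% over all genes) and 0 lower.

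Of 10 further genes of lysine, hydroxylysine and carnitine metabolism, 9 were lower on average in OB-TUDCA than OB-control, with a median of -0.26. Slc25a21, the mitochondrial carrier of oxoadipate, was at 6.14, 6.28 and 6.38 on the N-control arrays, 6.14, 6.18 and 6.30 on the OB-control arrays and 5.71, 5.43 and 5.44 on the OB-TUDCA arrays. The treated arrays stood well apart, and it fell by 0.68 (SE 0.10, adjusted p = 0.0386) against OB-control and by 0.74 (SE 0.10, adjusted p = 0.00722) against N-control. The carrier lies directly before Dhtkd1 in the route.

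The carriers of amino acids across membranes had mostly higher means. Of 10, 8 were higher on average in OB-TUDCA than OB-control, with a median of 0.16, and none was called. Slc3a2, the heavy chain that brings several amino acid exchangers to the cell surface, was at 8.56, 8.76 and 8.85 on the N-control arrays, 8.77, 8.94 and 9.19 on the OB-control arrays and 9.43, 9.68 and 10.26 on the OB-TUDCA arrays. It rose by 1.07 (SE 0.20, adjusted p = 0.0228) against N-control and differed by 0.82 (SE 0.20, adjusted p = 0.119) from OB-control.

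Genes of the sister complexes and of the shared cofactors had medians near 0, with single genes away from it. The 16 genes of the pyruvate and oxoglutarate dehydrogenases, their regulators, lipoylation and succinyl-CoA ligases had a median of 0.01 for OB-TUDCA against OB-control, with 8 lower and 8 higher means and none called. The smallest p-values among them were those of Suclg2 (-0.35, SE 0.08, adjusted p = 0.114) and Pdk2 (-0.37, SE 0.12, adjusted p = 0.224). The difference farthest from 0 was that of Pdk4, a kinase that inactivates pyruvate dehydrogenase, at 1.51 (SE 0.71, adjusted p = 0.439), with arrays that did not overlap. Against N-control it was 2.01 (SE 0.71, adjusted p = 0.172). Pdk4 was picked out after its values were seen. The 14 genes of cobalamin and biotin handling had a median of -0.01 there and none called. In OB-control, Tcn2, the plasma carrier of cobalamin, rose by 0.50 (SE 0.07, adjusted p = 0.0128) and Hlcs, which attaches biotin to the carboxylases, rose by 0.62 (SE 0.11, adjusted p = 0.0316) against N-control. Tcn2 was also up in OB-TUDCA, by 0.36 (SE 0.07, adjusted p = 0.0265) against N-control. Whether the members' shift differed from that of these lists was not tested.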

How the data were processed

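The platform was the Mouse Gene 1.0 ST array of Affymetrix, with 3 arrays of liver RNA per group. The authors deposited log2 signals per probe set, made with RMA in Affymetrix Expression Console (version not given in the sources used here). RMA corrects background, equalizes the arrays' distributions and summarizes probes, which narrows differences common to all probes. The values were used as deposited. Arrays hold no read depth, so precision is limited by 3 arrays a group and is given as SE.

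Of 35556 probe sets, the 21789 with 1 gene symbol were averaged per symbol to 19938 genes. Not used were 1621 probe sets with several symbols and 12146 with none. The 9 arrays were fitted with limma 3.58.1 in R 4.3.3 (a mean per group, residual degrees of freedom 6, prior 3.33). Tests were two-sided, p-values were adjusted over all genes by Benjamini-Hochberg, and no filter was applied. The fit was also run on simulated data with noise independent between genes. The members vary together from array to array, so nothing about them is drawn from that run. Every member is named, with values on every array for those at an unadjusted p below 0.05 between OB-TUDCA and OB-control or OB-control and N-control, or called in any comparison. In other lists, genes past the threshold are named (at most 6 per comparison), with the 2 smallest p-values where none passed between OB-TUDCA and OB-control in the list of sister complexes. Members and lists were chosen with earlier results of these data known. Promoters are RefSeq sequences of GRCm38.p6. Plots used matplotlib 3.10.9 under Python 3.11.15. Alternatives changed 1 choice at a time, and shares over all genes were not taken for them.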

Additional observations from a re-analysis of the deposited data

How the results depend on the processing

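The medians over the members kept their sign under every alternative run. They moved by less than 0.111, the SD of the members' mean signal between replicates of a group. The median for OB-control against N-control, 0.09, is itself smaller than this limit, so the limit says little about it. With single arrays left out they ran from -0.41 to -0.30 for OB-TUDCA against OB-control, from 0.03 to 0.13 for OB-control against N-control and from -0.39 to -0.22 for OB-TUDCA against N-control. The difference of OB-TUDCA minus OB-control kept its sign in all 18 settings for 31 of the 32 members, Acat1 being the exception at 0.005 without OB-TUDCA replicate 3. For OB-control minus N-control the sign was kept in all settings for 23 members, and for OB-TUDCA minus N-control for 27.

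The counts past the adjusted threshold moved. Between OB-TUDCA and OB-control the 1 lower member became 2 without the genes of low signal (Hibch and Abat), 2 with each probe set on its own (Hibadh and Abat), 0 with only the 2 groups compared, 0 with a covariate for the acinar genes, and 7 with the 1.5-fold limit in place of the test. It ran from 0 to 5 with single arrays left out, the highest without OB-TUDCA replicate 1. Between OB-TUDCA and N-control the 5 lower members became 2 with only those groups (Ppm1k and Hibch) and 1 with the acinar covariate (Hibch), and ran from 1 (without N-control replicates 1 or 2 or OB-TUDCA replicates 2 or 3) to 9 (without OB-TUDCA replicate 1). Between OB-control and N-control the 1.5-fold limit gave 1 higher member, where the test gave 0.

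At an unadjusted p below 0.05, the count of lower members between OB-TUDCA and OB-control ran from 16 (without OB-control replicate 2) to 24 and that of higher members from 0 to 1 with single arrays left out, and the count of lower members against N-control from 11 (without OB-TUDCA replicate 3) to 20. Between OB-control and N-control, the 5 higher members became 3 with array medians subtracted and ran from 1 (without N-control replicate 1) to 5. The 1 lower member became 2 with only the 2 groups, 0 with the acinar covariate, and ran from 0 to 2. The cause was not tested.

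Whether the replicate numbers pair the samples is not known. The correlation of deviations ran from -0.08 to 0.21 between same-numbered arrays and from -0.30 to 0.23 between arrays with different numbers. Against N-control, the same-numbered correlations were all positive, and the others were negative for OB-TUDCA and of both signs for OB-control. Between the ob/ob groups both kinds had both signs. With 3 arrays per group this does not decide the question. With the replicate number as a block, 0 members passed between OB-TUDCA and OB-control, 5 were lower between OB-TUDCA and N-control, and 1 was higher there at the unadjusted p. SAM, the authors' selection method, was not run again.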
